A study of Mus musculus with 24 samples.

Results

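The 44 genes described here are markers of the hepatic stellate cell together with the collagens, laminins, glycoproteins, cross-linking enzymes and proteases of the extracellular matrix. They were taken by gene symbol from a fixed list, and all 44 were found among the 54532 genes of the deposited count table of mouse liver RNA-seq. The study deleted Rab30, a small GTPase of the Golgi, and Cpt2, an enzyme needed for mitochondrial oxidation of long chain fatty acids, to ask what Rab30 does in the fasted liver. Each of the 6 groups held 4 livers of male mice fasted for 24 h, and the study's methods give 8 to 10 weeks as the usual age. Mice labelled ff;ff carried floxed Rab30 and floxed Cpt2 without Cre, so they kept both genes, and were littermates of the double knockouts. Rab30L-/-, Cpt2L-/- and DKO mice lacked Rab30, Cpt2 or both genes in hepatocytes through an albumin-driven Cre. That Cre acts in hepatocytes, so the stellate cells of these mice kept both genes. Rab30KO mice lacked exon 4 of Rab30 in the whole body, stellate cells included, and Rab30 Ctrl mice were their wildtype littermates. Littermate controls of the Rab30L-/- and Cpt2L-/- mice were not analysed here, so for these groups litter and genotype cannot be told apart.

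Hepatic stellate cells lie between hepatocytes and the sinusoids, the fine blood channels of the liver, and store vitamin A as retinyl esters. When activated by injury they lose these stores, become contractile, and secrete the fibrillar collagens that make up scar tissue. The liver also keeps a thin basement membrane of collagen IV, laminins and nidogen around its vessels, to which endothelial cells contribute, while hepatocytes make plasma fibronectin and much of the collagen XVIII of liver. Whole liver was sequenced, so a change in the number of a cell type and a change in its RNA per cell cannot be told apart, and no gene below was assigned to its cell of origin.

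Values are read counts scaled to library size (CPM, with TMM scaling over all 24 libraries), and each library held 11801027 to 24497738 counted reads. A gene was called when edgeR's quasi-likelihood test gave an adjusted p under 0.05 over all genes tested and the change was at least 1.2-fold; "rose" and "fell" are used only for called genes. Fold changes are log2 values ± SE, group values are mean ± SD, and n = 4 in every group. The libraries are named by their labels, since whole-gene reads of the 2 deleted genes did not follow them: Rab30 averaged 36.5 CPM in ff;ff, 17.1 in Rab30L-/-, 147 in Cpt2L-/- and 161 in DKO, and Cpt2 averaged 132, 219, 127 and 105 CPM in the same order. In the whole-body pair Rab30 was 14.1 ± 10.8 CPM in Rab30 Ctrl and 11.2 ± 5.04 in Rab30KO, with overlapping livers. A count over a whole gene does not show the loss of single exons. Some libraries stood apart over the 39 members that averaged at least 1 CPM. Replicate 1 of ff;ff was the lowest of its group for 32 of them and replicate 2 the highest for 26, while Rab30 Ctrl replicate 4 was the highest for 30 and replicate 3 the lowest for 23. Of the Rab30KO livers replicate 3 was the highest for 23 and replicate 4 the lowest for 24.

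Per transcript length, a few genes stood far above the other members in the fasted liver. Matrix genes outside the members were not ranked, so the order does not describe the whole matrix of the liver. In deposited FPKM, which divide by gene length and so allow genes to be ranked, 4 members averaged at least 10 over all groups. These were Col18a1, which encodes collagen XVIII, Fn1, which encodes fibronectin, Dcn, which encodes the collagen-binding proteoglycan decorin, and Sparc, a secreted collagen-binding protein. In ff;ff livers Col18a1 stood at 116 ± 41.2 FPKM, Fn1 at 85.4 ± 16.9 and Dcn at 25.9 ± 5.65. The fibrillar collagen genes of scar tissue were far lower, with Col1a1 at 0.276 ± 0.153 FPKM and Col3a1 at 0.557 ± 0.305. Of the remaining members, 21 averaged 1 to 10 FPKM, 17 averaged 0.1 to 1, and Mmp13 and Timp1 were under 0.1. Timp1, a protease inhibitor typical of activated stellate cells, had no read in 15 of the 24 libraries, including all 4 of Cpt2L-/-, where 3 reads would correspond to 0.187 to 0.194 CPM. Fn1 and Col18a1 together with the other 42 genes summed to 2323 CPM in ff;ff, of which Fn1 made up 42.6% and Col18a1 33.8%, so sums over the members mostly follow these 2 genes. Without them the other 42 genes summed to 545 ± 143 CPM in ff;ff, 651 ± 7.80 in Rab30L-/-, 742 ± 24.8 in Cpt2L-/- and 689 ± 37.4 in DKO, beside 719 ± 220 in Rab30 Ctrl and 768 ± 147 in Rab30KO. The ff;ff mean was thus the lowest of the 6 groups, and the lowest and highest ff;ff livers stood at 369 and 713 CPM. Fn1 and Col18a1 are genes that hepatocytes express, and for them the label of stellate cell genes does not describe the source that is known from background.

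**Figure D1:**
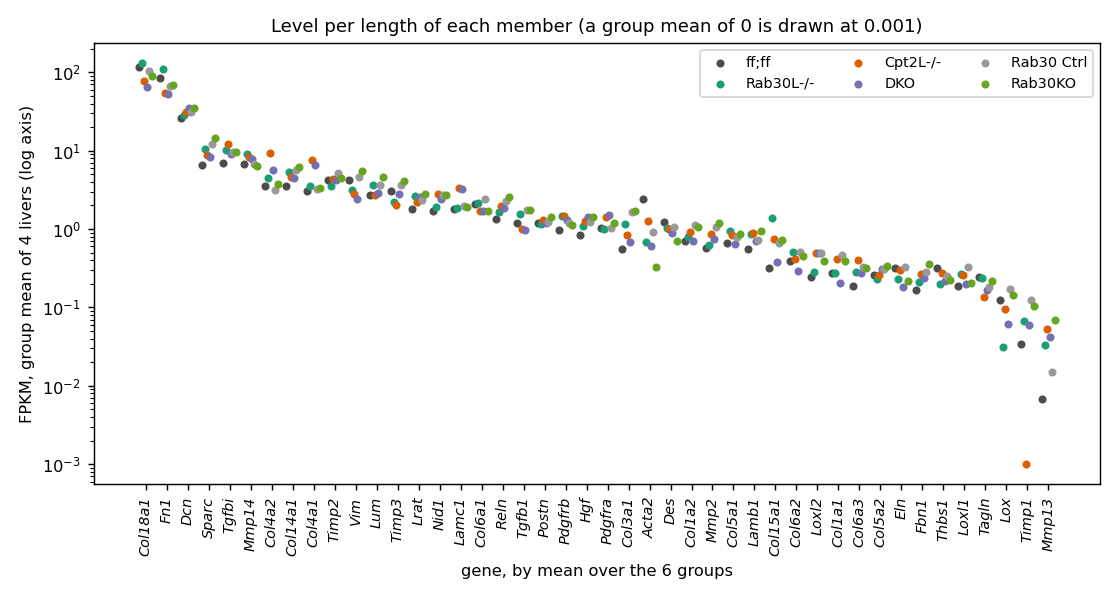
Deposited FPKM of each member, as the mean of the 4 livers in each of the 6 groups (points), on a log axis and ordered by the mean over all groups. Col18a1, Fn1 and Dcn lie above all other members, and the mean of 0 for Timp1 in Cpt2L-/- is drawn at 0.001.

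The genes that define stellate cells were present in every liver, and none was called in any of the 7 comparisons as fitted here. Lrat, the enzyme that esterifies retinol for storage, read 8.64, 10.1, 8.43 and 10.8 CPM in the ff;ff livers and 10.3, 12.4, 14.6 and 18.3 in Rab30L-/-. In Cpt2L-/- it read 14.3, 9.75, 11.8 and 10.4, and in DKO 18.1, 17.1, 7.54 and 10.5. The 4 DKO livers split into a pair above 17 CPM and a pair below 11, and the groups overlapped. The change of Lrat was 0.27 ± 0.18 for Cpt2L-/- against ff;ff (adjusted p = 0.31) and -0.060 ± 0.28 for DKO against Rab30L-/- (adjusted p = 0.894). Reln encodes reelin, a secreted glycoprotein that quiescent stellate cells express. Its values were 18.2, 43.6, 33.6 and 30.9 CPM in ff;ff, 41.3, 41.4, 35.4 and 39.5 in Rab30L-/-, 50.3, 49.7, 34.2 and 52.7 in Cpt2L-/- and 51.0, 51.8, 34.5 and 33.9 in DKO. The lowest ff;ff liver lay well under its group and 3 of 4 Cpt2L-/- livers lay above all ff;ff livers, but the change of 0.55 ± 0.24 did not pass (adjusted p = 0.112). Reln was called without a filter on low counts (adjusted p = 0.0374) and without ff;ff replicate 2 (adjusted p = 0.0411). Pdgfrb is the PDGF receptor through which stellate cells are driven to divide. Pdgfrb read 2.53, 7.09, 6.76 and 4.50 CPM in ff;ff and 8.07, 7.66, 8.17 and 7.73 in Rab30L-/-, so that every Rab30L-/- liver was above every ff;ff liver, yet the change of 0.58 ± 0.29 was not called (adjusted p = 0.478). It read 8.38, 6.35, 7.96 and 8.73 CPM in Cpt2L-/- and 8.93, 7.22, 6.89 and 4.59 in DKO. Des, the muscle-type filament desmin, spread widest in ff;ff at 0.873, 8.39, 5.15 and 3.81 CPM, against 4.68, 3.46, 3.60 and 3.79 in Rab30L-/-, 3.58, 3.21, 4.59 and 3.68 in Cpt2L-/- and 3.63, 2.64, 3.90 and 3.0 in DKO. The last 3 groups lay inside the ff;ff range.

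In the whole-body pair the groups overlapped for each of the same 4 genes. Lrat read 13.6, 12.4, 8.90 and 15.4 CPM in Rab30 Ctrl and 15.0, 9.85, 17.3 and 18.4 in Rab30KO. Reln read 46.1, 34.4, 39.03 and 96.1 CPM in Rab30 Ctrl, where replicate 4 was more than 2 times any other liver of the group, and 73.8, 51.9, 63.5 and 53.0 in Rab30KO. Pdgfrb read 4.98, 6.36, 4.17 and 10.6 CPM against 6.58, 6.06, 7.79 and 3.88, and Des 3.88, 4.64, 2.65 and 5.08 CPM against 2.63, 2.96, 3.10 and 1.74. Hgf, the hepatocyte growth factor that stellate cells secrete, averaged 6.01 ± 0.880 CPM in ff;ff, 8.88 ± 1.49 in Cpt2L-/- and 10.02 ± 3.36 in DKO and was not called in any comparison by edgeR as fitted here, with 0.55 ± 0.21 for Cpt2L-/- against ff;ff (adjusted p = 0.0683).

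A second list of 12 stellate cell markers that are not among the 44 genes gave the level of the cells a further reading. Their summed level ranged from 122 to 173 CPM in ff;ff, 142 to 246 in Rab30L-/-, 130 to 154 in Cpt2L-/- and 128 to 166 in DKO, so the groups overlapped. None of the 12 was at 0. In Cpt2L-/- against ff;ff none of the 12 rose and 2 fell (16.7%, where 23.8% of all genes were called). Of the 2, Steap4, a metal reductase, gave -0.60 ± 0.15 (adjusted p = 0.0112). In DKO against Rab30L-/- 11 were tested, of which 1 rose and 4 fell (45.5%, where 30.7% of all genes were called). The gene that rose, named after its value was seen, was the endothelin receptor Ednrb. In the interaction test described below 1 of the 12 was called higher and 1 lower (16.7%, where 4.06% of all genes were called).

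**Figure D2:**
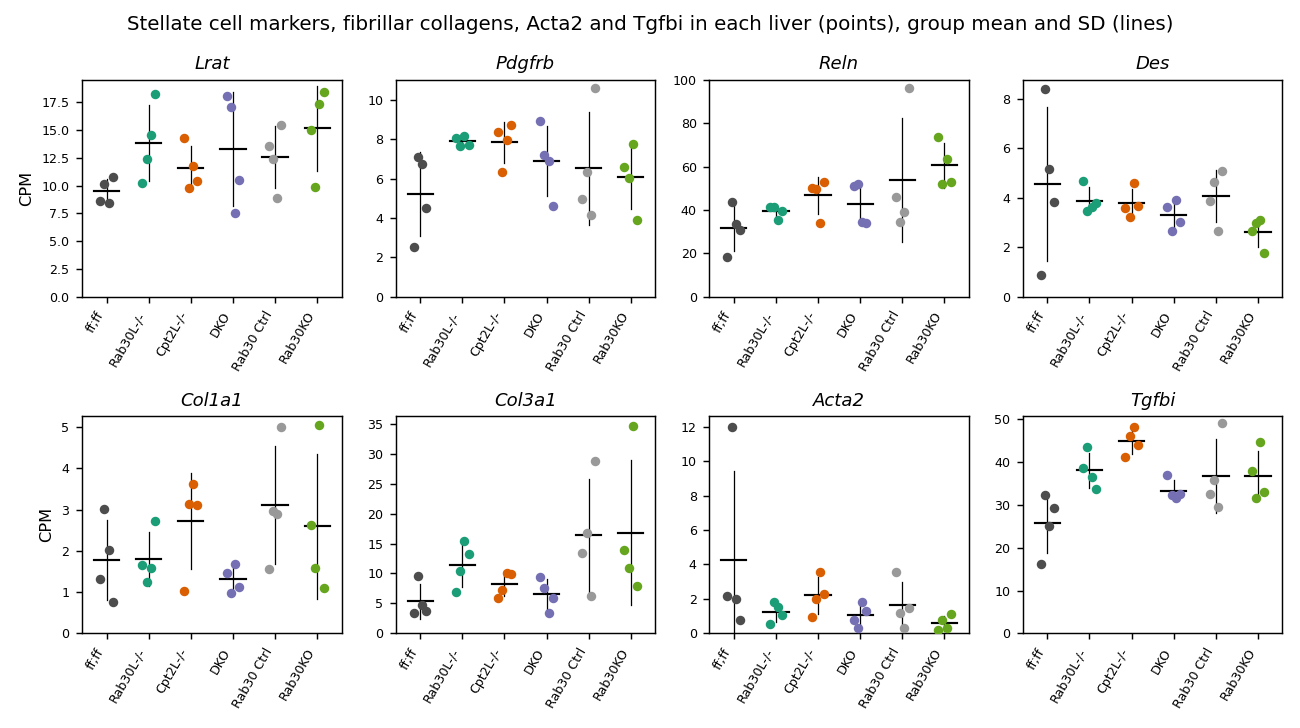
CPM of Lrat, Pdgfrb, Reln, Des, Col1a1, Col3a1, Acta2 and Tgfbi in each liver (points) with the group mean and SD (lines; an SD that would reach below 0 is cut at 0). Every Rab30L-/- liver of Pdgfrb lies above every ff;ff liver, the single high ff;ff liver of Acta2 at 11.99 CPM is replicate 2, and the 4 Cpt2L-/- livers of Tgfbi lie above those of ff;ff and DKO.

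The comparison of Cpt2L-/- with ff;ff livers asked how the matrix genes stood when hepatocytes could not oxidise long chain fatty acids. Of 40 members tested, 8 rose and 1 fell. The 8 were Col4a1, Col4a2, Lamc1, Lamb1, Nid1, Tgfbi, Col6a3 and Loxl2, and the gene that fell was Fn1. The members called made up 22.5% of those tested, where 23.8% of all 13270 genes tested were called, 11.9% higher and 11.9% lower. The number of called members was thus near the background of a comparison that moved many genes. The median change was 0.38 over the members and close to 0 over all genes, and 28 of the 40 lay above 0. Against the same ff;ff livers the median was also above 0 in Rab30L-/- (0.26, with 29 of 40 members above 0) and in DKO (0.22, with 23 of 39). The upward shift was therefore not particular to Cpt2L-/-.

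By role, 5 of the 7 basement membrane genes rose, with a median change of 0.91. None of the 6 fibrillar and fibril-associated collagens, the 4 tested proteases and inhibitors, the 3 tested filament proteins or the 6 receptors and signals was called. In the other roles 1 of 3 collagen VI genes rose, 1 of 2 tested lysyl oxidases rose, and of 9 glycoproteins and proteoglycans 1 rose and 1 fell. These roles were grouped with earlier results of the same data known, so the counts are a description.

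Col4a1 and Col4a2 encode the 2 chains that form the common collagen IV network of basement membranes. They lie head to head on chromosome 8 of GRCm38, Col4a1 on the minus strand at chr8:11198423-11312826 and Col4a2 on the plus strand at chr8:11312805-11449287. Their annotated ends overlap by 22 bases, and reads there could count for either gene, since no source used here states whether the counting used strand. Col4a1 read 16.5, 31.8, 25.3 and 17.1 CPM in ff;ff and 48.6, 54.6, 55.4 and 64.5 in Cpt2L-/-. Every Cpt2L-/- liver was above every ff;ff liver, a 2.43-fold rise (1.28 ± 0.21, adjusted p = 0.000685). Col4a2 read 17.6, 29.8, 24.4 and 19.98 CPM in ff;ff and 42.4, 57.6, 57.6 and 85.0 in Cpt2L-/-, again without overlap, and rose 2.62-fold (1.39 ± 0.22, adjusted p = 0.00064).

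Lamc1 and Lamb1 encode the gamma 1 and beta 1 chains found in most laminins, the other network of the basement membrane. Lamc1 read 10.6, 16.4, 16.1 and 15.2 CPM in ff;ff and 35.3, 23.5, 24.5 and 27.3 in Cpt2L-/-. All 4 Cpt2L-/- livers were above the highest ff;ff liver, and the rise was 1.88-fold (0.91 ± 0.19, adjusted p = 0.00323). Lamb1 read 4.10, 5.79, 6.69 and 4.95 CPM in ff;ff and 9.41, 9.24, 7.83 and 8.11 in Cpt2L-/-, without overlap and with a smaller rise of 1.59-fold (0.67 ± 0.20, adjusted p = 0.0295). Nid1 encodes nidogen, which links laminin to collagen IV. The highest ff;ff liver lay above the lowest Cpt2L-/- liver, and the rise was 0.72 ± 0.23 (adjusted p = 0.0401). The 2 basement membrane genes that were not called were Col15a1 (1.19 ± 0.44, adjusted p = 0.072) and Col18a1 (-0.57 ± 0.23, adjusted p = 0.092), with opposite signs.

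**Figure D3:**
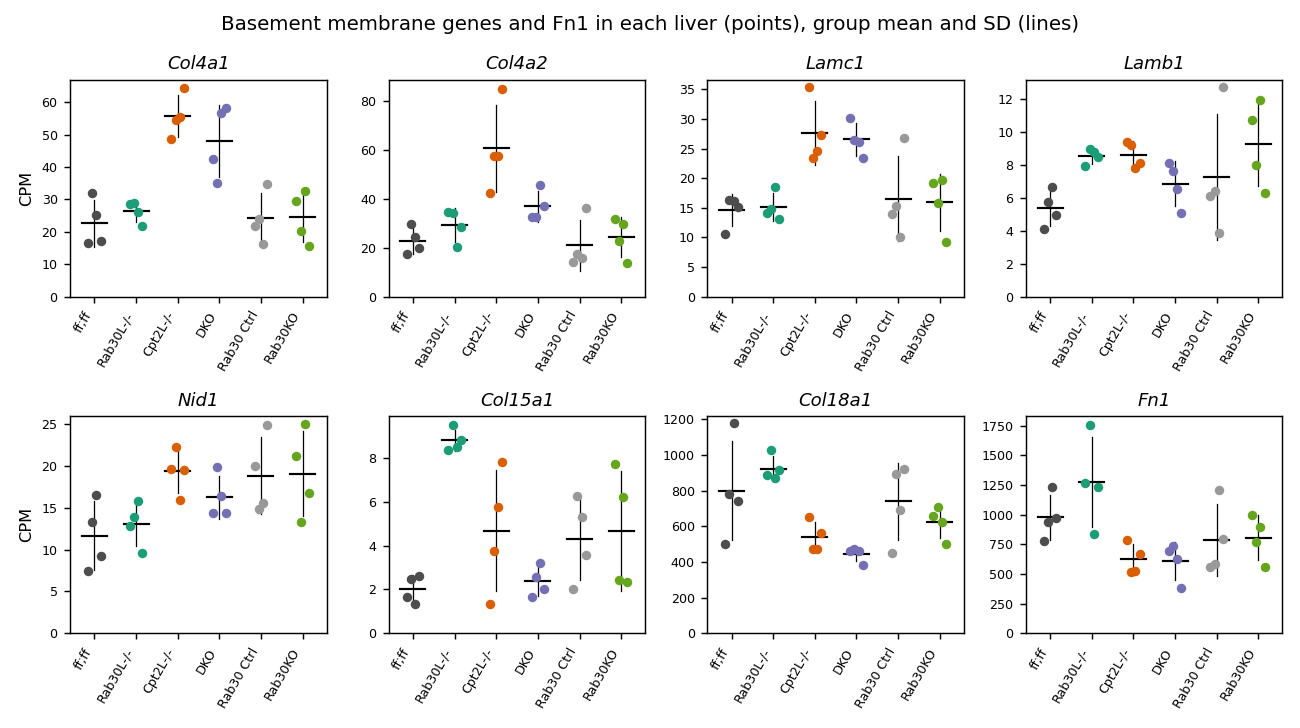
CPM of the 7 basement membrane genes and Fn1 in each liver (points) with the group mean and SD (lines). The Cpt2L-/- and DKO livers of Col4a1 and Lamc1 lie above those of ff;ff and Rab30L-/-, Col15a1 is highest in Rab30L-/- at 8.37 to 9.48 CPM, and Col18a1 is lowest in DKO at 385 to 473 CPM.

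Outside the basement membrane, Tgfbi, a secreted adhesion protein induced by TGF-beta, read 16.2, 32.4, 25.1 and 29.3 CPM in ff;ff and 41.2, 46.2, 48.2 and 44.0 in Cpt2L-/-. The groups did not overlap and Tgfbi rose 1.72-fold (0.79 ± 0.19, adjusted p = 0.00848). Col6a3 encodes a chain of collagen VI, a microfibril of the tissue between cells. It read 1.13, 2.72, 2.30 and 2.73 CPM in ff;ff and 6.14, 4.09, 4.08 and 4.80 in Cpt2L-/-, a rise of 2.11-fold without overlap (1.08 ± 0.29, adjusted p = 0.0173). Its partner chains gave -0.32 ± 0.23 for Col6a1 and 0.088 ± 0.31 for Col6a2, neither of them called. Loxl2, a lysyl oxidase that cross-links collagen, including collagen IV, read 0.873, 1.54, 1.53 and 1.27 CPM in ff;ff and 2.62, 2.39, 3.49 and 2.06 in Cpt2L-/-. All Cpt2L-/- livers were above ff;ff at these low levels, and the change was 0.99 ± 0.30 (adjusted p = 0.0306).

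Fn1, the only member that fell in this comparison, read 775, 938, 1233 and 969 CPM in ff;ff and 783, 518, 523 and 669 in Cpt2L-/-. The highest Cpt2L-/- liver, replicate 1, was just above the lowest ff;ff liver, and the level in ff;ff was 1.58 times that in Cpt2L-/- (-0.66 ± 0.19, adjusted p = 0.0244). Markers of hepatocytes, which make plasma fibronectin, moved in the same direction. Of 10 hepatocyte markers 6 fell and none rose, and their summed level was 106153 to 140700 CPM in ff;ff and 51309 to 62887 in Cpt2L-/-. Their part in the change of Fn1 was not tested.

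The 6 fibrillar and fibril-associated collagen genes among the members were low in both groups and none of the 6 was called. Col1a1, the main collagen chain of scar tissue, read 1.31, 3.01, 2.02 and 0.761 CPM in ff;ff and 1.02, 3.14, 3.62 and 3.12 in Cpt2L-/-. The range of ff;ff reached into that of Cpt2L-/-, and the change was 0.59 ± 0.45 (adjusted p = 0.38). Col3a1, its partner in thin collagen fibrils, read 3.32, 9.63, 4.74 and 3.74 CPM in ff;ff and 5.89, 7.17, 10.1 and 9.92 in Cpt2L-/-, with a change of 0.60 ± 0.32 (adjusted p = 0.21). Acta2, the smooth muscle actin used as the sign of an activated stellate cell, read 2.18, 11.99, 2.02 and 0.761 CPM in ff;ff and 0.960, 2.01, 3.56 and 2.31 in Cpt2L-/-. A single ff;ff liver, replicate 2, was far above the other 3, and the sum of 6 smooth muscle markers was also highest in that liver at 34.1 CPM, against 5.07 to 9.19 in the others of its group. The change of Acta2 was -0.98 ± 0.79 (adjusted p = 0.42), and without that liver it was 0.42. The remaining members of this kind gave -0.042 (Col5a2) to 0.39 (Col1a2).

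Leaving out each library in turn gave 5 to 10 called members in this comparison, with 5 when Cpt2L-/- replicate 2 was left out, and Col4a1, Col4a2, Lamc1 and Tgfbi were called in all 8 such fits. The calls of Lamb1 and Nid1 held in 2 of the 8 fits, those without ff;ff replicate 3 and Cpt2L-/- replicate 3, that of Loxl2 in 3, those without ff;ff replicate 2, ff;ff replicate 3 and Cpt2L-/- replicate 4, while Fn1 was lost without Cpt2L-/- replicate 2 or 3 and Col6a3 without Cpt2L-/- replicate 1. The calls of Fn1 (adjusted p = 0.0686) and Lamb1 (adjusted p = 0.0647) were also lost when edgeR was fitted to all 24 libraries, and that of Loxl2 without a filter on low counts (adjusted p = 0.0502). Without ff;ff replicate 1, the lowest liver for most members, 5 members rose and 3 fell, Col18a1 and Timp3 joining Fn1, and without ff;ff replicate 2 there were 8 that rose, Col3a1 and Reln among them, and 1 that fell. Col15a1 was called by DESeq2, in the fit of all 24 libraries, without a filter and without Cpt2L-/- replicate 1, and Col18a1 by limma-voom and without a filter.

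Levels of other cell types were read beside these changes. Of 10 markers of sinusoidal endothelial cells, which also make basement membrane, none rose and only Clec4g fell (-0.65 ± 0.17, adjusted p = 0.013), and their summed level was 295 to 425 CPM in ff;ff and 292 to 346 in Cpt2L-/-. Of 10 portal fibroblast and mesothelial markers 5 were tested and 2 rose, Gas6 (1.23 ± 0.25) and Entpd2 (1.21 ± 0.25), with summed levels of 28.5 to 52.9 CPM in ff;ff and 72.9 to 104.9 in Cpt2L-/-. Gas6 was the only gene of that list that averaged at least 10 CPM, so the sum mostly follows it, and the median change of the 5 was 0.071. The markers Upk1b, Wt1 and Pi16 of that list averaged under 0.5 CPM. Of 10 Kupffer cell markers 1 rose, the lysosomal protein Cd68 (2.6 ± 0.22), and 3 fell, with summed levels of 208 to 380.4 CPM against 205 to 291. Of the bile duct markers 1 of 5 tested fell, and of the blood markers 3 of 5. The part of these cell types in the changes of the matrix genes was not tested.

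The same loss of Cpt2 was also measured in livers whose hepatocytes lacked Rab30, by comparing DKO with Rab30L-/-. This comparison shares no library with the one above. Of 39 members tested 3 rose and 5 fell, 20.5%, where 30.7% of 13292 genes were called, 14.9% higher and 15.8% lower. The members that rose were Col4a1, Lamc1 and Pdgfra, and those that fell were Col15a1, Col18a1, Fn1, Col6a2 and Tgfb1. The median change was -0.19.

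Col4a1 read 28.7, 28.9, 26.1 and 21.7 CPM in Rab30L-/- and 42.6, 35.2, 56.7 and 58.2 in DKO. Every DKO liver was above every Rab30L-/- liver and Col4a1 rose 1.83-fold (0.87 ± 0.17, adjusted p = 0.00307). Lamc1 read 14.2, 14.7, 18.6 and 13.2 CPM in Rab30L-/- and 30.2, 26.4, 26.1 and 23.4 in DKO, and rose 1.75-fold without overlap (0.81 ± 0.14, adjusted p = 0.00141). Pdgfra, the PDGF receptor that stellate cells and fibroblasts of the liver share, read 12.97, 7.74, 8.67 and 10.8 CPM in Rab30L-/- and 14.4, 16.1, 15.3 and 13.2 in DKO. The DKO livers were all above those of Rab30L-/-, though replicate 1 of Rab30L-/- lay just under the lowest DKO liver, and the rise was 0.56 ± 0.18 (adjusted p = 0.0366). In ff;ff and Cpt2L-/- Pdgfra read 6.02, 14.7, 10.4 and 9.89 CPM and 16.4, 14.6, 14.0 and 11.5, with a change of 0.44 ± 0.24 that was not called (adjusted p = 0.2).

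Among the genes that fell, Col15a1, which encodes a collagen of the basement membrane zone, had the largest change of any member in this comparison. It read 8.37, 9.48, 8.50 and 8.80 CPM in Rab30L-/-, within a narrow range, and 1.67, 2.58, 3.18 and 2.02 in DKO. Its level in Rab30L-/- was 3.71 times that in DKO (-1.89 ± 0.22, adjusted p = 0.000156). Col18a1 read 888, 1025, 867 and 912 CPM in Rab30L-/- and 461, 473, 463 and 385 in DKO, and fell without overlap (-1.05 ± 0.14, adjusted p = 0.000305). Its annotated span overlaps that of Slc19a1, which averaged 22.9 CPM over the 24 libraries against 679 for Col18a1. Fn1 read 1271, 1760.5, 840.3 and 1235 CPM in Rab30L-/- and 698, 739.7, 623 and 383 in DKO, and fell without overlap (-1.06 ± 0.26, adjusted p = 0.0101). Col6a2 read 4.75, 3.95, 4.90 and 3.18 CPM in Rab30L-/- and 2.09, 2.58, 2.47 and 2.39 in DKO, also without overlap (-0.82 ± 0.23, adjusted p = 0.0193). Tgfb1, the growth factor that drives stellate cells to make matrix and that many other cells express, read 7.84, 9.48, 7.96 and 5.54 CPM in Rab30L-/- and 5.16, 3.80, 6.17 and 3.84 in DKO. The lowest Rab30L-/- liver lay inside the DKO range, and the fall was -0.70 ± 0.23 (adjusted p = 0.0403). Col3a1 was 11.5 CPM on average in Rab30L-/- and read 9.42, 7.54, 3.44 and 5.95 in DKO. Its change of -0.80 ± 0.31 was not called (adjusted p = 0.0749), but it was called by DESeq2 (adjusted p = 0.0416) and by edgeR without Rab30L-/- replicate 1 or DKO replicate 1 (adjusted p = 0.0306 and 0.0427).

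Leaving out each library in turn gave 5 to 8 called members, with 5 when Rab30L-/- replicate 3 was left out, and Col4a1, Lamc1, Col15a1, Col18a1 and Fn1 were called in all 8 fits. The call of Pdgfra held only without Rab30L-/- replicate 1 or DKO replicate 4 and that of Tgfb1 only without Rab30L-/- replicate 4 or DKO replicate 3, and Col6a2 was lost without Rab30L-/- replicate 3 or DKO replicate 1. In the fit of all 24 libraries Col6a2, Pdgfra and Tgfb1 were not called (adjusted p = 0.0754, 0.107 and 0.0952), nor was Col6a2 without a filter on low counts (adjusted p = 0.0563). In this comparison 7 of 10 hepatocyte markers fell and none rose, with summed levels of 91649 to 104757 CPM in Rab30L-/- and 64928 to 79387 in DKO, and 8 of 10 Kupffer cell markers fell, with sums of 264 to 749.6 CPM against 186 to 251, while Cd68 rose. Of 10 sinusoidal endothelial markers 2 rose, Oit3 (0.59 ± 0.13) and Bmp2 (0.77 ± 0.15), both named after their values were seen, none fell and 8 lay above 0, with sums of 284 to 331 CPM in Rab30L-/- and 300.5 to 395 in DKO. Of 6 tested portal fibroblast and mesothelial markers Entpd2 rose (1.32 ± 0.32) and none fell, with sums of 41.9 to 68.0 CPM against 63.4 to 75.8. The part of these cell types in the changes of the members was not tested.

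Set side by side, 3 members were called in the same direction whether or not Rab30 was present: Col4a1 and Lamc1 rose and Fn1 fell in both, with the call of Fn1 in Cpt2L-/- lost under the alternatives given above. They were 33.3% of the 9 members called in Cpt2L-/- against ff;ff and 37.5% of the 8 called in DKO against Rab30L-/-, and no member was called in opposite directions. Over all 12970 genes tested in both, the genes called in the same direction were 54.6% and 41.9% of the called genes of each comparison. The sign of the change was shared by 21 of 39 members (53.8%) and by 66.4% of all genes. These shares are given without a test.

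**Figure D4:**
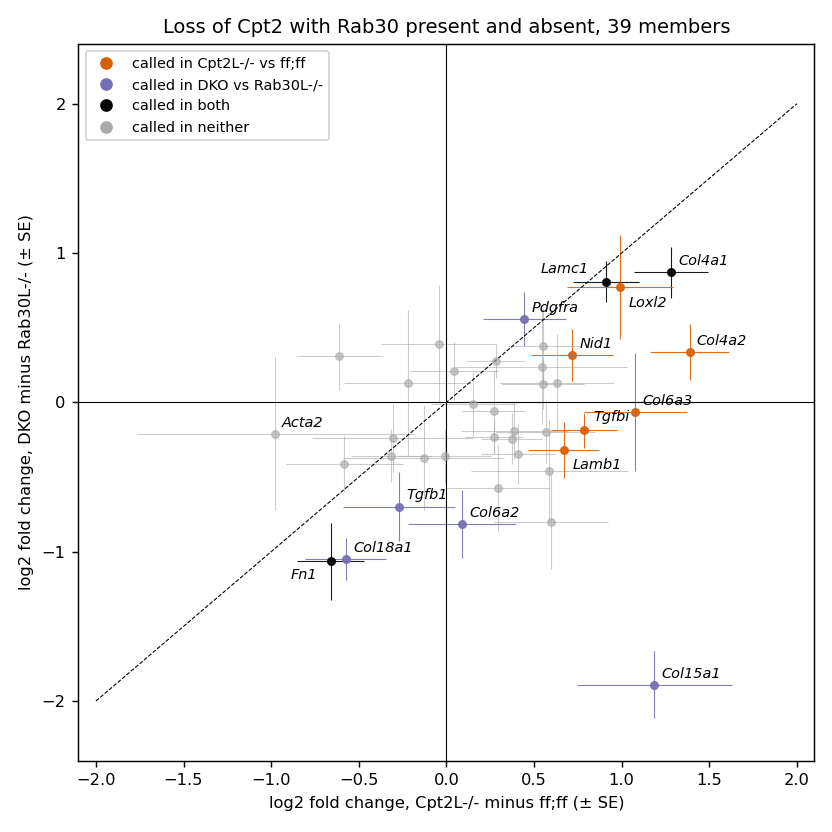
Log2 fold change ± SE of the 39 members tested in both comparisons, Cpt2L-/- minus ff;ff on the horizontal axis and DKO minus Rab30L-/- on the vertical axis; the dashed line marks equal change. Col4a1 and Lamc1 lie in the upper right, Fn1 and Col18a1 in the lower left, and Col15a1 lies far below the line at 1.19 and -1.89.

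Whether the change with Cpt2 loss differed by Rab30 genotype was tested as an interaction over the 16 livers of ff;ff, Rab30L-/-, Cpt2L-/- and DKO. Of 40 members, 3 were called, all with a lower change when Rab30 was absent (7.50%), where 4.06% of 14063 genes were called in either direction and 1.86% lower. The 3 were Col15a1 (-3.07 ± 0.52, adjusted p = 0.00287), Tgfbi (-0.97 ± 0.23, adjusted p = 0.0256) and Lamb1 (-0.98 ± 0.27, adjusted p = 0.044). Their values show where the difference arose. Col15a1 was low in ff;ff at 1.66, 2.48, 1.32 and 2.6 CPM and spread from 1.34 to 7.80 in Cpt2L-/-, whereas it started high in Rab30L-/- and was low in DKO. Tgfbi read 38.5, 43.6, 36.4 and 33.7 CPM in Rab30L-/- and 37.0, 32.3, 31.6 and 32.7 in DKO, a change of -0.19 ± 0.12 (adjusted p = 0.259) beside the rise in Cpt2L-/- described above. Lamb1 read 7.92, 8.98, 8.80 and 8.49 CPM in Rab30L-/- and 8.16, 7.67, 6.56 and 5.06 in DKO, a change of -0.32 ± 0.19 (adjusted p = 0.224). In both genes the Rab30L-/- livers were above all 4 ff;ff livers. Col4a2, at 34.5, 34.3, 20.1 and 28.4 CPM in Rab30L-/- and 32.6, 32.5, 45.9 and 37.1 in DKO, gave an interaction of -1.04 ± 0.31 that was not called (adjusted p = 0.0636). The median interaction of the members was -0.40. Col15a1 was called in all 16 fits that left out a library, Tgfbi was lost without Rab30L-/- replicate 2 or DKO replicate 2, and Lamb1 held only without Rab30L-/- replicate 1, DKO replicate 1 or ff;ff replicate 3 and was not called in the fit of all 24 libraries (adjusted p = 0.152) or without a filter on low counts (adjusted p = 0.0812). Without ff;ff replicate 1 the interaction was called for Col15a1 and Tgfbi, and without ff;ff replicate 2 for Col3a1 and Col4a2 as well. Col4a2 was also called by DESeq2, by limma-voom and without Rab30L-/- replicate 3 or Cpt2L-/- replicate 1.

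Against ff;ff, the DKO livers gave 4 members that rose and 1 that fell of 39 tested (12.8%), where 16.1% of 13389 genes were called, 7.87% higher and 8.24% lower. This comparison uses the same ff;ff livers as that of Cpt2L-/-, so their values are set side by side and not counted as agreement. Lamc1 rose by 0.85 ± 0.17 (adjusted p = 0.00519), Col4a1 by 1.07 ± 0.24 (adjusted p = 0.0101) and Col4a2 by 0.68 ± 0.19 (adjusted p = 0.0282). Loxl2, at 2.16, 2.90, 3.12 and 2.30 CPM in DKO, rose by 0.98 ± 0.30 (adjusted p = 0.044). Col18a1 fell, with -0.85 ± 0.23 (adjusted p = 0.0242), and every DKO liver was below every ff;ff liver. Fn1 gave -0.69 ± 0.22 without overlap of the groups and missed the threshold (adjusted p = 0.0535); it was called by DESeq2, by limma-voom, without a filter on low counts and without ff;ff replicate 1. The count of called members was 3 without ff;ff replicate 2 or without DKO replicate 1, 3 or 4, and at most 5 in any fit without a library. Lamc1 and Col4a1 were called in all 8 such fits, Loxl2 in none, Col4a2 was lost without ff;ff replicate 4 or DKO replicate 3 or 4, and Col18a1 without ff;ff replicate 2 or DKO replicate 1 or 4. Col4a2 was also not called by limma-voom with sample quality weights (adjusted p = 0.0534) or in the fit of all 24 libraries (adjusted p = 0.102), and Loxl2 not without a filter on low counts (adjusted p = 0.0863). Of 10 hepatocyte markers 7 fell and none rose, with sums of 64928 to 79387 CPM in DKO against the ff;ff range given above, and of 10 Kupffer cell markers 5 fell and Cd68 rose. Entpd2 (1.29 ± 0.27) and Gas6 (0.88 ± 0.22) rose among 5 tested portal fibroblast and mesothelial markers. The part of these cell types in the changes of the members was not tested.

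The effect of losing Rab30 in livers that already lacked Cpt2 was read from DKO against Cpt2L-/-. By edgeR's quasi-likelihood test 0 of 40 members were called, where 2.71% of 13306 genes were. At an unadjusted p under 0.05 and a change of at least 1.2-fold there were 6 members, all lower in DKO: Col1a1, Col6a2, Col4a2, Col15a1, Eln and Tgfbi. That is 15.0% of the members, beside 21.2% of all genes at the same 2 limits. DESeq2 and limma-voom each called 2 members, Col4a2 and Tgfbi, both lower. Both tools also called far more of all genes than edgeR did here, as given in the last section. The edgeR share is therefore not the background for these 2 calls. Tgfbi read 41.2, 46.2, 48.2 and 44.0 CPM in Cpt2L-/- and 37.0, 32.3, 31.6 and 32.7 in DKO, without overlap (-0.42 ± 0.11, adjusted p = 0.0627 by edgeR). Col4a2 overlapped only in that the highest DKO liver was above the lowest Cpt2L-/- liver (-0.70 ± 0.20, adjusted p = 0.0804). Col1a1 read 1.46, 0.967, 1.69 and 1.12 CPM in DKO, and 3 of the 4 Cpt2L-/- livers were above all of these (-1.05 ± 0.37, adjusted p = 0.14). Lamc1, in contrast, differed by -0.049 ± 0.15 and Lrat by 0.21 ± 0.26, both within the spread of the livers. The median change of the members was -0.18. Without Cpt2L-/- replicate 1 the count became 2, Col1a1 and Col4a2. None of 10 hepatocyte markers was called, though they summed to 64928 to 79387 CPM in DKO and 51309 to 62887 in Cpt2L-/-, without overlap. All 5 tested blood markers lay above 0 (median 0.88) and none was called. The part of these cell types in the changes of the members was not tested.

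By edgeR as fitted here, few genes differed with loss of Rab30 alone in hepatocytes. In Rab30L-/- against ff;ff 0.479% of 13367 genes were called and 0.299% were higher. DESeq2, limma-voom and a fit without a filter on low counts each called more genes, as given in the last section. Of 40 members 1 was called, Col15a1, which rose 4.29-fold (2.1 ± 0.25, adjusted p = 0.00311). The lowest Rab30L-/- liver had more than 3 times the CPM of the highest ff;ff liver, and the call held in all 8 fits that left out a library. At an unadjusted p under 0.05 and a change of at least 1.2-fold there were 9 members (22.5%, beside 11.2% of all genes). Of these Col3a1, Col14a1, Col15a1, Lamb1, Sparc, Tgfbi, Mmp14 and Lrat were higher and Acta2 was lower. Col3a1 read 6.86, 10.4, 15.4 and 13.3 CPM in Rab30L-/-, and 3 of these livers were above the highest ff;ff liver (1.08 ± 0.36, adjusted p = 0.286). Acta2 read 0.528, 1.81, 1.51 and 1.06 CPM in Rab30L-/- (-1.81 ± 0.80, adjusted p = 0.445), below 3 of the 4 ff;ff livers. All of these comparisons use the ff;ff group, whose replicate 1 was the lowest liver for most members. All 10 Kupffer cell markers lay above 0 (median 0.61), as did 9 of the 12 further stellate cell markers (median 0.64). Of 10 sinusoidal endothelial markers 1 lay above 0 (median -0.33). Hepatocyte markers summed to 91649 to 104757 CPM, below ff;ff at 106153 to 140700, with a median change of -0.016. None of these markers was called, and their part in the changes of the members was not tested.

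In the whole-body knockout no member was called. Rab30KO against Rab30 Ctrl gave 0 of 41 members by edgeR, 0 by DESeq2 and 0 by limma-voom. By edgeR 0.022% of 13656 genes were called. At an unadjusted p under 0.05 and a change of at least 1.2-fold there were 0 members as well, beside 2.21% of all genes. The median change of the members was 0.02. Col15a1, which rose in Rab30L-/-, read 2.03, 6.27, 5.30 and 3.59 CPM in Rab30 Ctrl and 7.73, 2.43, 6.20 and 2.33 in Rab30KO, with a change of 0.11 ± 0.45. Both groups spanned much of the same range. Col4a1 read 21.7, 23.8, 16.3 and 34.7 CPM and 29.6, 20.4, 32.5 and 15.8, and Fn1 557, 587, 1210.0 and 797 and 1001, 768, 901 and 562. Acta2 gave the largest difference of the members at -1.47 ± 0.70 and was not called, from 3.53, 1.18, 0.316 and 1.49 CPM in Rab30 Ctrl and 0.164, 0.758, 0.288 and 1.10 in Rab30KO. Replicate 4 of Rab30 Ctrl was the highest of its group for 30 of 39 members, and the spread within this pair was wide for many genes. Col1a1 read 1.56, 2.96, 2.91 and 5.01 CPM in Rab30 Ctrl and 2.63, 1.59, 5.05 and 1.10 in Rab30KO. Col3a1 read 13.5, 16.8, 6.32 and 28.8 CPM and 14.0, 10.8, 34.6 and 7.88.

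**Figure D5:**
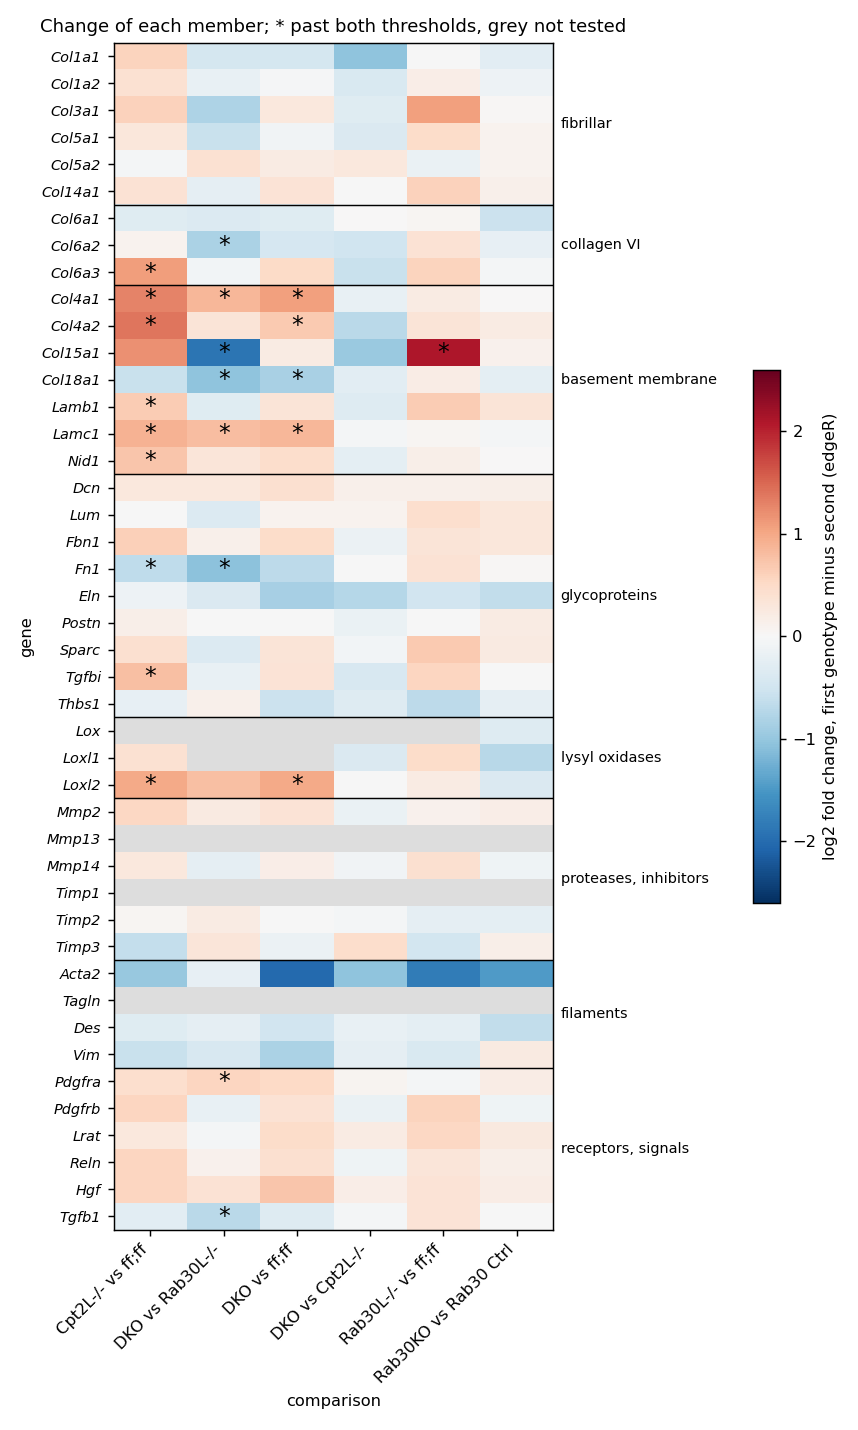
Log2 fold change of each of the 44 members in 6 comparisons (columns), grouped by role (rows); red is higher and blue is lower in the first genotype, an asterisk marks a called gene and grey a gene not tested. Most asterisks in the first 3 columns fall among the basement membrane genes, and the Rab30KO column has none.

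Over the 7 tests, 14 of the 41 members that were tested were called at least once (34.1%, where 39.5% of 14378 genes were), 27 were never called, and 3 were too low to be tested. The 3 were Tagln, a smooth muscle protein, Timp1 and the collagenase Mmp13. Lox was tested only in the whole-body pair. Loxl1, another lysyl oxidase, was tested in all but the 2 comparisons of DKO with Rab30L-/- and with ff;ff, and was not called. The proteins that trim and guard the matrix were not called: in Cpt2L-/- against ff;ff the collagenase Mmp2 gave 0.54 ± 0.49, the membrane protease Mmp14 0.27 ± 0.17, and the inhibitors Timp2 0.042 ± 0.25 and Timp3 -0.61 ± 0.24. The fibril-binding proteoglycans Dcn (0.28 ± 0.17) and Lum (-0.010 ± 0.27), fibrillin 1 (0.63 ± 0.33), elastin (-0.13 ± 0.46), periostin (0.15 ± 0.24), Sparc (0.41 ± 0.21) and thrombospondin 1 (-0.22 ± 0.36) were not called either. Vim, the filament vimentin, gave -0.58 ± 0.34. Some of the 27 were called under an alternative. In Cpt2L-/- against ff;ff limma-voom with sample quality weights called Hgf and Timp3, and edgeR without a filter on low counts called Reln and Timp3. In DKO against Rab30L-/- Dcn was called by DESeq2 and by limma-voom, Col3a1 by DESeq2 and Vim by limma-voom. In DKO against ff;ff Hgf was called by DESeq2, by limma-voom, in the fit of all 24 libraries and without a filter, and Thbs1 by limma-voom. Without ff;ff replicate 4 Vim was called in both comparisons with ff;ff that change Cpt2, and Hgf was called in Cpt2L-/- without ff;ff replicate 3 or Cpt2L-/- replicate 3 and in DKO without DKO replicate 4.

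Other genes of the same pathways were read from lists made with earlier results of these data known. The shares of all genes called, 23.8% in Cpt2L-/- against ff;ff and 30.7% in DKO against Rab30L-/-, are the background for their counts. Of 33 tested matrix genes outside the 44, 4 rose and 5 fell in Cpt2L-/- against ff;ff (27.3% called), with a median change near 0. Those with the lowest adjusted p were Col12a1, a fibril-associated collagen that rose by 2.52 ± 0.30 (adjusted p = 7.8e-05), and 3 genes that fell: the membrane protease Mmp15 (-1.36 ± 0.19, adjusted p = 0.000206), the plasma protein vitronectin, Vtn (-1.19 ± 0.17, adjusted p = 0.00034), and the fibrillar collagen Col27a1 (-1.4 ± 0.23, adjusted p = 0.000771). Col12a1 read 0.698, 1.42, 0.905 and 1.01 CPM in ff;ff and 3.78, 6.85, 6.47 and 6.80 in Cpt2L-/-. In DKO against Rab30L-/- 2 of 31 such genes rose and 7 fell (29.0%).

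Of 14 tested enzymes of collagen synthesis 2 rose and 2 fell in Cpt2L-/- against ff;ff (28.6%). The procollagen proteinase Bmp1 (-0.89 ± 0.18) and the folding enzyme Ppib (-0.74 ± 0.20) fell, and the prolyl hydroxylase subunit P4ha2 (0.73 ± 0.22) and the collagen galactosyltransferase Colgalt1 (0.40 ± 0.13) rose. In DKO against Rab30L-/- 1 of 15 rose and 4 fell (33.3%). Of 25 tested genes of TGF-beta and PDGF signalling, 5 rose and none fell in Cpt2L-/- against ff;ff, where 23.8% of all genes were called and 11.9% rose. Cyr61, a matrix protein induced by growth factors, rose by 2.01 ± 0.27 (adjusted p = 0.000163). Pdgfa, a ligand of the PDGF receptors, rose by 1.21 ± 0.19 (adjusted p = 0.000621) and the receptor Tgfbr2 by 0.74 ± 0.14 (adjusted p = 0.00187). Pdgfa read 4.71, 4.49, 6.62 and 4.88 CPM in ff;ff and 9.79, 12.4, 13.3 and 12.8 in Cpt2L-/-. In DKO against Rab30L-/- 9 of the 25 rose and 1 fell (40.0% called, where 30.7% of all genes were called), while Tgfb1 itself was among the members that fell there.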

How the data were processed

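The data were RNA-seq of whole fasted liver from 24 mice, 4 in each of 6 groups, grouped by the labels. Libraries were made and sequenced by Novogene. Per the submitters' processing notes, HISAT2 and DESeq2 were used and the builds were named GRCm38 and mm10; the counter, its annotation and its use of strand are not given in the sources used here. The authors deposited raw read counts per gene, which were used for all tests, and FPKM, which served only to rank genes. Deposited FPKM were proportional to counts divided by a size factor and gene length (library medians 0.0661 to 0.0667 over 2199 genes). Tables of the authors' own comparisons, with fold changes and p-values, and their normalised counts were not used.

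Each comparison was fitted to its own libraries with edgeR 4.0.16 (R 4.3.3): filterByExpr, TMM, quasi-likelihood test, Benjamini-Hochberg adjustment over all genes tested; the interaction used 16 libraries. A call needed an adjusted p under 0.05 and a 1.2-fold change, the study's own fold limit. Alternatives were DESeq2 1.42.0 and its size factors, limma-voom with sample quality weights (limma 3.58.1), all 24 libraries, other count filters and leaving out each library. The fits were run on simulated data in which 200 genes changed 2-fold and all genes had the same dispersion. That check does not show how the fits handle livers that vary as these do. The members and all gene lists were chosen with earlier results of these data known. Library values are given for 7 members chosen beforehand by name and for up to 8 members with the lowest adjusted p in each of Cpt2L-/- against ff;ff, DKO against Rab30L-/- and DKO against Cpt2L-/-; of the other lists, at most 4 genes each with the lowest adjusted p in Cpt2L-/- against ff;ff are named by rule, and some that the rule would name are not reported here. Markers near 0, genes said to be named after their values were seen, and the library values of Col12a1 and Pdgfa were added outside the rule. Replicates differed by more than counting noise (chi-square per degree of freedom at least 13.4). The p-values set each group difference against the variation estimated from these livers. Of the 44 members, 26 overlap another annotated gene, 20 of them on the opposite strand, and 4 overlap a gene that averaged at least 1 CPM; without strand such reads cannot be told apart.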

Additional observations from a re-analysis of the deposited data

Results flagged for a closer look

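Of 174 groups of 4 livers that were examined, 6 held a liver whose gap to the nearest other was large for the range of its group. Chance alone gives about 1 in 20, so these 6 are no more than chance would give. Col4a2 was 36.2 CPM in Rab30 Ctrl replicate 4, against 14.2 to 17.4 in the other 3 livers. Col18a1 was 385 CPM in DKO replicate 4, below the 461 to 473 of the others. Acta2 stood at 11.99 CPM in ff;ff replicate 2, where the others read 0.761 to 2.18. In the same liver the summed level of 6 smooth muscle markers was 34.1 CPM, against 5.07 to 9.19. Reln was 34.2 CPM in Cpt2L-/- replicate 3 and 49.7 to 52.7 in the others. Tgfb1 read 8.30 CPM in Cpt2L-/- replicate 4 and 3.46 to 4.16 in the others.

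For 3 members the change with loss of Cpt2 differed by Rab30 genotype in edgeR's interaction test: Col15a1 by -3.07, Lamb1 by -0.98 and Tgfbi by -0.97 on the log2 scale, with a lower change in each case when Rab30 was absent. Col15a1 was called in all 16 fits that left out a library. Tgfbi lost its call in 2 of the 16, and Lamb1 (adjusted p = 0.044) in 13 as well as in the fit of all 24 libraries and without a filter on low counts. Loss of Cpt2 was measured against ff;ff livers with Rab30 and against Rab30L-/- livers without it, and litter and genotype cannot be told apart in these groups.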

How the results depend on the processing

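The number of called members under each alternative stayed within 1.5 times the count given above, with these exceptions. A fit of all 24 libraries gave 5 members in DKO against Rab30L-/-. In DKO against Cpt2L-/- DESeq2 gave 2, limma-voom with sample quality weights 2 and no filter on low counts 1. Leaving out each library in turn gave 5 to 10 members for Cpt2L-/- against ff;ff, 5 to 8 for DKO against Rab30L-/-, 3 to 5 for DKO against ff;ff, 0 to 2 for DKO against Cpt2L-/-, 1 to 1 for Rab30L-/- against ff;ff, 0 to 0 for Rab30KO against Rab30 Ctrl, and 1 to 4 for the interaction. The sign turned for genes that were never called: without ff;ff replicate 2, Des became 0.17 and Acta2 0.42 in Cpt2L-/- against ff;ff, where leaving out each library gave -0.64 to 0.17 for Des and -1.33 to 0.42 for Acta2. In DKO against Rab30L-/- Lrat became 0.082 with limma-voom, 0.10 without Rab30L-/- replicate 4, 0.14 without DKO replicate 3 and 0.05 without DKO replicate 4, and Acta2 0.01 without Rab30L-/- replicate 2 and 0.092 without DKO replicate 2; leaving out each library gave -0.23 to 0.14 for Lrat and -0.57 to 0.092 for Acta2. Calls gained included Col3a1 and Reln in Cpt2L-/- against ff;ff without ff;ff replicate 2, Reln there without a filter on low counts, and Col3a1 in DKO against Rab30L-/- with DESeq2 and without Rab30L-/- replicate 1 or DKO replicate 1. Over all genes, the count of 2157 in DKO against ff;ff was 3739 with limma-voom. That of 360 in DKO against Cpt2L-/- was 1032 with DESeq2, 1534 with limma-voom, 114 in the fit of all libraries and 705 without a filter. The 64 of Rab30L-/- against ff;ff became 298, 236 and 240 with DESeq2, limma-voom and no filter, and 25 with at least 10 counts in every library. The 3 of Rab30KO against Rab30 Ctrl became 10 with DESeq2, 9 in the fit of all libraries, 6 without a filter and 0 with at least 10 counts. The 571 of the interaction became 1080 with DESeq2, 1268 with limma-voom and 374 in the fit of all libraries. The cause of these differences was not tested. No paired analysis was possible because the labels give no replicate numbers that groups share. At this depth Timp1, Mmp13 and Tagln could not be compared.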
